A study of Dunaliella salina with 9 samples.

Results

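The clusters described here had high transcript levels in Dunaliella salina at an irradiance of 1500 µmol photons m⁻² s⁻¹, while their levels at 150 and 600 lay close to each other. They numbered 117 of the 76875 transcript clusters listed in the files. They were chosen on the measured values, as counts scaled to the library total (CPM) averaged over the 3 libraries of a group. A cluster was kept when its mean at 1500 was at least 5 CPM and at least 3 times the mean at 150 and the mean at 600. The lower means had to be above 0 and within 1.5-fold of each other, and the lowest library at 1500 had to lie above all 6 libraries of the other groups. The height at 1500 and the closeness of the other groups are therefore how the clusters were found and not results, and they were given no test of their own. The files do not pair cluster identifiers with gene names, and none of the identifiers (0 of 76875) matched an entry in the table of Dunsal1 v. 2 genes, so no function is given for any cluster and 2 are shown by identifier.

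Dunaliella salina is a wall-less green alga of salt waters. Light beyond what photosynthesis can use leads algae to dissipate the surplus as heat, to repair photosystem II, to trim their light-harvesting antenna and to remove reactive oxygen species. This alga is known for laying down carotenoids under such light and for balancing salt with glycerol.

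RNA sequencing was done on 9 libraries in 3 groups of 3. The groups were LL, which stayed at the growth irradiance of 150 µmol photons per square metre and second, ML, which was moved to 600, and HL, which was moved to 1500. All cells had been grown at 22 °C in cycles of 16 h of light and 8 h of darkness under fluorescent lamps, were taken in mid-exponential growth and were put into fresh medium for the treatment. The series title poses the question of gene expression during photoacclimation, and the time at the new irradiance could not be learned from the labels. Library totals ranged from 17778225 to 19643714 counts, and no label says whether the libraries of a group came from separate cultures, so a p-value covers the scatter of these libraries, which may be technical. A CPM value is a share of the RNA sequenced and not an amount per cell, so that more of a transcript per cell and less of the other RNA cannot be told apart.

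The conditions removed clusters in steps. A mean of at least 5 CPM in HL was reached by 14204 clusters, and 435 of these were at least 3 times the LL mean. Of these, 318 were also at least 3 times the ML mean, and 284 had means above 0 in both lower groups. The limit on the ratio of LL to ML left 127, and the separation of the libraries left 117. Of the 157 clusters removed at the ratio limit, LL was above ML in 139 and ML was above LL in 18.

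Clusters lay close to the limits on both sides. The lowest HL mean inside the rule was 5.06 CPM, and the highest that failed it on that condition alone was 4.94 CPM. The smallest fold of HL over the higher of the other means was 3.03 inside and the largest outside was 2.93. The ratio between LL and ML reached 1.50 inside, and the nearest cluster outside stood at 1.51. The lowest HL library was 1.04 times the highest LL or ML library in the member nearest that limit, and 0.803 times it in the nearest cluster outside. Membership at the edges thus turned on small differences.

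The members together held a small share of the RNA. They made up 0.157%, 0.144% and 0.129% of the counts in the LL libraries, 0.118%, 0.138% and 0.124% in the ML libraries and 0.533%, 0.618% and 0.599% in the HL libraries. The group means were 0.143% ± 0.0144 (LL), 0.126% ± 0.0102 (ML) and 0.583% ± 0.0449 (HL) (SD over 3 libraries). The HL libraries lay well above the others, which lay close together, as the rule requires of each member. The summed level in HL was 4.07 times that in LL and 4.62 times that in ML.

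**Figure D1:**
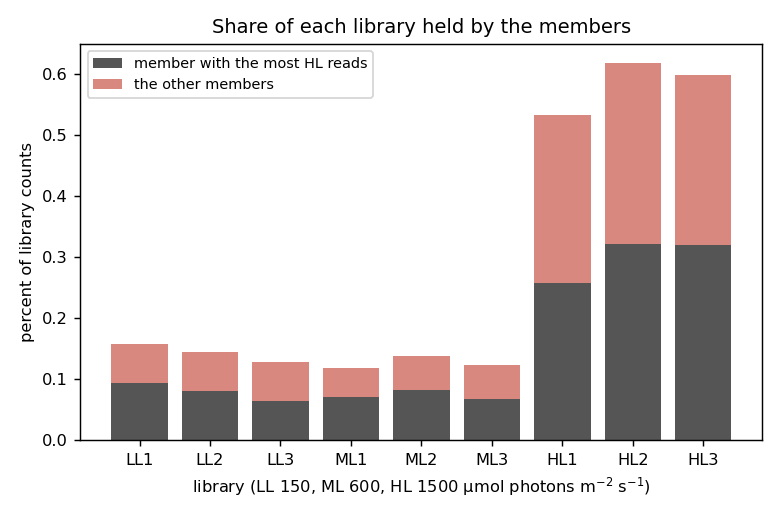
Percent of each library's counts held by the 117 members, in the 3 libraries of LL, ML and HL (bars from 0). The dark part is the member with the most HL reads, which made up 51.3% of the summed HL mean, and the light part is the other 116 members together.

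A single cluster made up much of this sum. Cluster-5009.33571 had 938, 814 and 642 CPM in LL, 707, 817 and 677 CPM in ML and 2571, 3212 and 3194 CPM in HL. Its HL libraries were all above 2500 CPM and no other library reached 1000 CPM. The means were 798 ± 149 CPM in LL, 734 ± 73.5 CPM in ML and 2992 ± 365 CPM in HL (SD over 3 libraries), so that HL was 3.75 times LL and 4.08 times ML. By reads it ranked 28 among all clusters in HL, the only member among the first 100. It is long, with a length of 12038 bases implied by the authors' FPKM (fragments scaled to length and depth), and per length its level was 66.3 ± 12.4 FPKM in LL, 61.0 ± 6.08 FPKM in ML and 248 ± 30.3 FPKM in HL. Without it the remaining 116 members summed to 635 ± 10.4 CPM in LL, 530 ± 52.0 CPM in ML and 2843 ± 114 CPM in HL, with HL at 4.48 times LL and 5.37 times ML.

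The next 3 members by reads were 3 to 5 times as high in HL as in the higher of the other groups. The member with the second most HL reads stood at 99.95, 95.8 and 89.1 CPM in LL, at 67.6, 69.3 and 77.4 CPM in ML and at 396, 442 and 427 CPM in HL. It is short, with an implied length of 539 bases, and had 777 ± 47.6 FPKM in HL, above the 248 ± 30.3 FPKM of Cluster-5009.33571 per length. The third by reads had 79.2, 113 and 165 CPM in LL, 71.2, 108 and 77.9 CPM in ML and 404, 362 and 342 CPM in HL. Its LL libraries were widely spread, and it passed the fold limit narrowly, at 3.10 times the LL mean. The fourth had 55.3, 46.1 and 47.3 CPM in LL, 33.9, 33.9 and 36.6 CPM in ML and 164, 170 and 164 CPM in HL. Every ML library of this member lay below every LL library.

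The next members were even within groups. The fifth by reads stood at 27.2 ± 2.57 CPM in LL, 27.2 ± 2.78 CPM in ML and 114 ± 3.61 CPM in HL (SD over 3 libraries), and LL and ML differed by less than their SD. The sixth stood at 28.8 ± 1.68 CPM in LL, 23.2 ± 1.43 CPM in ML and 98.7 ± 0.767 CPM in HL. Its HL libraries read 99.6, 98.2 and 98.2 CPM, the smallest relative spread in HL of any member, with a coefficient of variation of 0.777%. The seventh was uneven, with LL libraries at 17.6, 15.6 and 9.64 CPM, ML libraries at 17.3, 14.6 and 12.1 CPM and HL libraries at 27.98, 93.0 and 63.6 CPM. The first HL library of this member was less than 2 times its highest LL library.

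**Figure D2:**
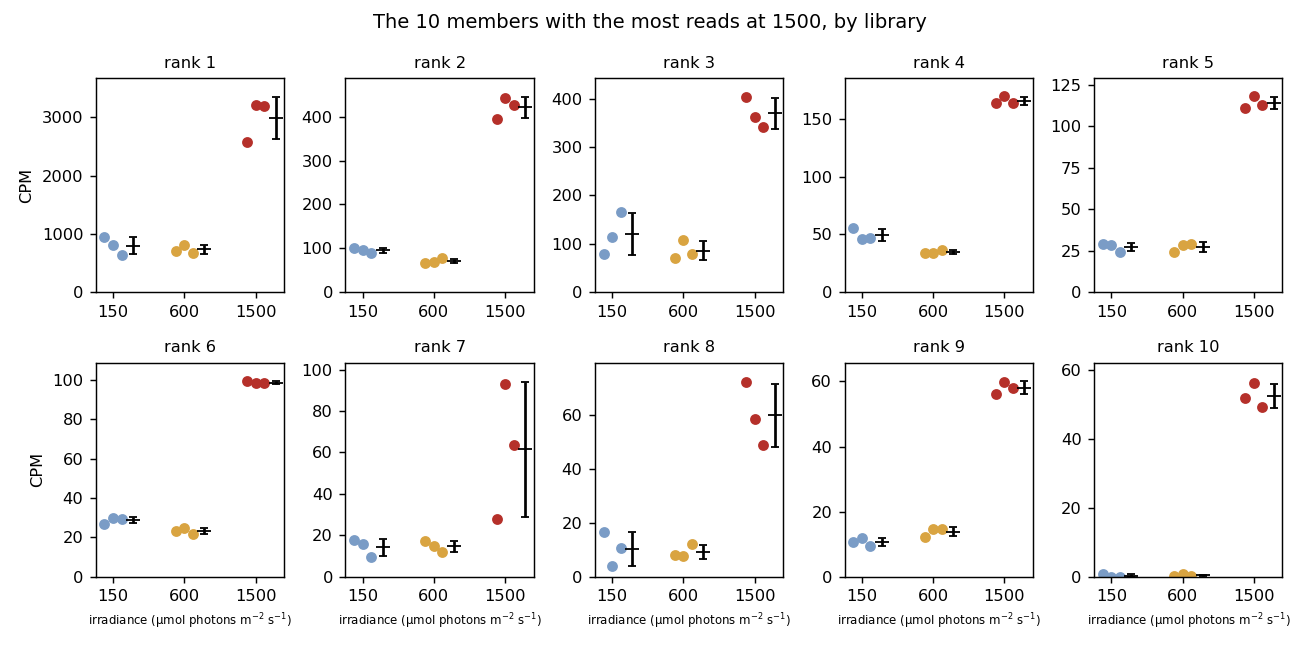
CPM in each library (points, left to right replicates 1 to 3) for the 10 members with the most HL reads, against irradiance, with the group mean and SD (n = 3) at the right of the points. Each axis starts at 0; the HL points lie above all others in each panel, and the seventh member has HL libraries between 27.98 and 93.0 CPM.

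Most members were far rarer than these. The HL mean was 5 to 10 CPM in 63 members, 10 to 50 CPM in 42, 50 to 100 CPM in 7 and above 100 CPM in 5. The medians of the group means were 1.72 CPM in LL, 1.57 CPM in ML and 9.40 CPM in HL. By reads the median member ranked 10559 among all clusters in HL. The 10 members with the most reads made up 75.3% of the summed HL level, so that the other 107 shared the rest.

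The size of the difference varied widely among the members. The HL mean was 3 to 5 times the higher of the LL and ML means in 64 members, 5 to 10 times in 33, 10 to 20 times in 11 and more than 20 times in 9, with a median of 4.61. The largest fold belonged to Cluster-5009.33324, with 0.874, 0 and 0 CPM in LL, 0.238, 0.662 and 0.302 CPM in ML and 52.0, 56.3 and 49.3 CPM in HL. This cluster was close to 0 in every LL and ML library and between 49 and 57 CPM in every HL library. Its HL mean of 52.5 ± 3.54 CPM was 131 times the ML mean of 0.401 ± 0.229 CPM and 180 times the LL mean of 0.291 ± 0.504 CPM (SD, n = 3 each). These ratios rest on few reads in the lower groups, 23.2 summed over ML and 15.5 over LL, against 3031 over HL.

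The next in fold had the same near absence below 1500. The second read 0, 0 and 0.939 CPM in LL, 0.208, 0.236 and 0.263 CPM in ML and 16.4, 20.1 and 22.5 CPM in HL, with HL at 62.8 times LL. The third read 1.70, 1.09 and 0 CPM in LL, 0, 1.14 and 0.866 CPM in ML and 47.6, 39.6 and 45.5 CPM in HL, with HL at 47.5 times LL. Both had HL libraries of at least 16 CPM and no other library above 2 CPM. The fourth read 0, 0.536 and 0 CPM in LL, 0.685, 0 and 0 CPM in ML and 6.10, 6.20 and 7.96 CPM in HL, with HL at 29.6 times ML. The fifth by fold had reads in every library, at 1.27, 0.799 and 1.23 CPM in LL, 0.789, 0.856 and 0.893 CPM in ML and 29.2, 37.2 and 30.6 CPM in HL. Its fold of 29.5 therefore does not rest on libraries at 0.

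Among the 20 members with a fold of at least 10, 16 had at least 1 LL or ML library with a count of 0. Their HL means ran from 5.51 to 52.5 CPM, and no LL mean was above 1.87 CPM and no ML mean above 1.44 CPM. The 5 members above 100 CPM had folds between 3.10 and 4.44.

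**Figure D3:**
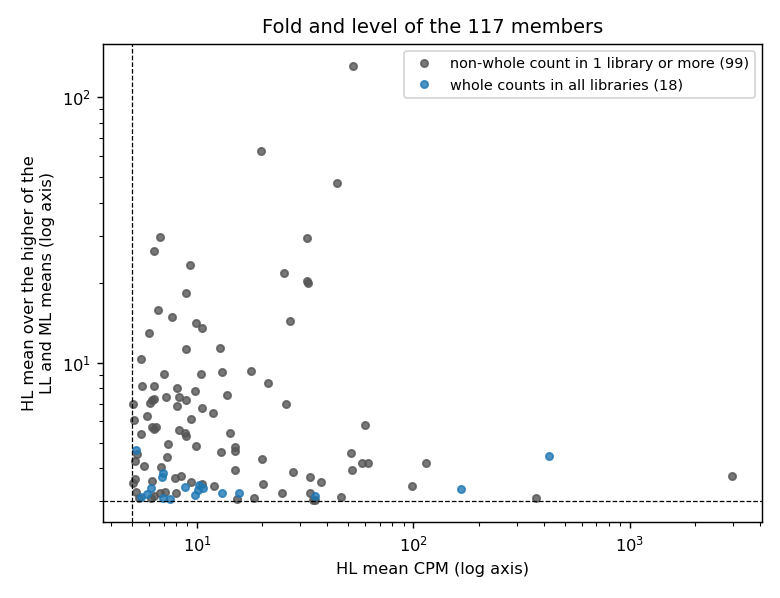
HL mean over the higher of the LL and ML means against the HL mean in CPM (both log axes) for the 117 members, with dashed lines at the rule's limits of 3 and 5 CPM. Members with whole counts in all libraries (18) reach a fold of 4.68, and the folds above this belong to members with non-whole counts.

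Many members had counts that were not whole numbers. Such estimates can come from sharing a read out over sequences that resemble each other, and the level of a cluster is then uncertain. Counts were whole in all 9 libraries for 18 of the 117 members (15.4%), for 40.97% of the 310 clusters with the opposite pattern (low at 1500 and close at 150 and 600, by the same limits turned round), for 16.9% of the 207 clusters high at 600 by the same rule and for 39.3% of the 34377 clusters tested. Among the 14199 clusters tested with an HL mean of at least 5 CPM, which the rule also asks of the members, the share was 43.2%. These shares were not tested against each other. Short clusters had whole counts more often, so the shares were also read at an implied length of at least 500 bases. There, 2 of 97 members had whole counts (2.06%), compared with 36.9% of 282 clusters of the opposite pattern, 15.0% of 193 clusters high at 600 and 31.1% of the clusters tested. Of the 12423 clusters this long with an HL mean of at least 5 CPM, 38.9% had whole counts. Of the 20 members under 500 bases, 16 had whole counts (80%), and the share among clusters tested was 70.7%.

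The whole-count members were the more modest and more even ones. Their folds ran from 3.08 to 4.68 with a median of 3.33, and those of the 99 others from 3.03 to 131 with a median of 5.44. None of the 18 had a fold of 5 or more, which 53 of the 99 others had. The median coefficient of variation in HL was 7.75% in the whole-count members and 19.95% in the others. No whole-count member had an LL or ML library at 0, while 39 of the others did. The median HL mean was alike, at 9.28 CPM and 9.40 CPM, and the median implied length was 249 bases in the whole-count members and 1155 bases in the others. The part of divided reads in the large folds was not tested.

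In 32 members an LL or ML library had a count of 0 while another had at least 1 CPM. The widest example is the member with the twelfth most HL reads, chosen after its values were seen, which stood at 12.5, 21.2 and 0 CPM in LL, at 0, 19.2 and 8.63 CPM in ML and at 54.8, 68.6 and 30.2 CPM in HL. Libraries of the same group were thus listed at 0 and at about 20 CPM. Over the members the coefficient of variation had a median of 46.1% (LL), 32.2% (ML) and 15.4% (HL). In the 14199 clusters tested with an HL mean of at least 5 CPM it was 7.47% (LL), 7.26% (ML) and 6.52% (HL), at a higher median HL mean of 17.95 CPM. Over all 34377 clusters tested it was 15.6% (LL), 14.7% (ML) and 15.7% (HL). The members' spread in HL was thus larger than in clusters of that minimum level, and close to that of all clusters tested. In LL and ML it was larger than in both. In the clusters high at 600 by the same rule it was 15.7% (LL), 10.8% (ML) and 17.5% (HL). In those of the opposite pattern it was 10.4% (LL), 9.99% (ML) and 15.1% (HL). The members' levels were low in LL and ML, and the part of the level in the spread was not tested.

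Within HL, the libraries did not differ evenly. HL1 was the lowest of the 3 in 60 of the 117 members, HL3 in 35 and HL2 in 22, and HL2 was the highest in 58. The order over all clusters tested was not counted, so this is not read as particular to the members. A gap to the other groups is required by the rule, and its width is given only as a description. In 94 members the lowest HL library was at least 2 times the highest LL or ML library. It was below 1.5 times in 5 members. The narrowest had LL libraries at 0.917, 1.00 and 0.583 CPM, ML libraries at 0.983, 1.97 and 0.402 CPM and HL libraries at 2.05, 9.65 and 7.54 CPM. Across all clusters tested, the lowest HL library lay above all LL and ML libraries by any margin in 16.9%. The share at 2 times or more was not counted.

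In the fit across all clusters, most but not all members passed the test. In edgeR's quasi-likelihood test with Benjamini-Hochberg adjustment at 0.05, all 117 members passed the expression filter. Higher in HL than in LL were 99 members, beside 22.1% of the 34377 clusters tested, and higher in HL than in ML were 103, beside 28.9%. The rule used these contrasts, so nothing is read from the counts. The comparisons share the HL libraries. None was lower, and 99 were called against both groups. The share of all clusters tested that was called higher against both was not counted. The members' median log2 fold change was 2.55 for HL against LL and 2.63 for HL against ML, and the medians of all clusters were 0.01 and −0.07. With library totals alone as the scale, which moved the medians of all clusters to −0.15 and −0.28, the members' medians were 2.39 and 2.42.

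The 18 members not called against both groups were all members with non-whole counts, and 17 of them had an LL or ML library at 0. Their median HL mean was 6.53 CPM and their median coefficient of variation in HL 28.8%, compared with 10.1 CPM and 14.2% in the called ones. Of the 20 members with a fold of at least 10, 19 were called against both groups, and the rule used these contrasts too.

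**Figure D4:**
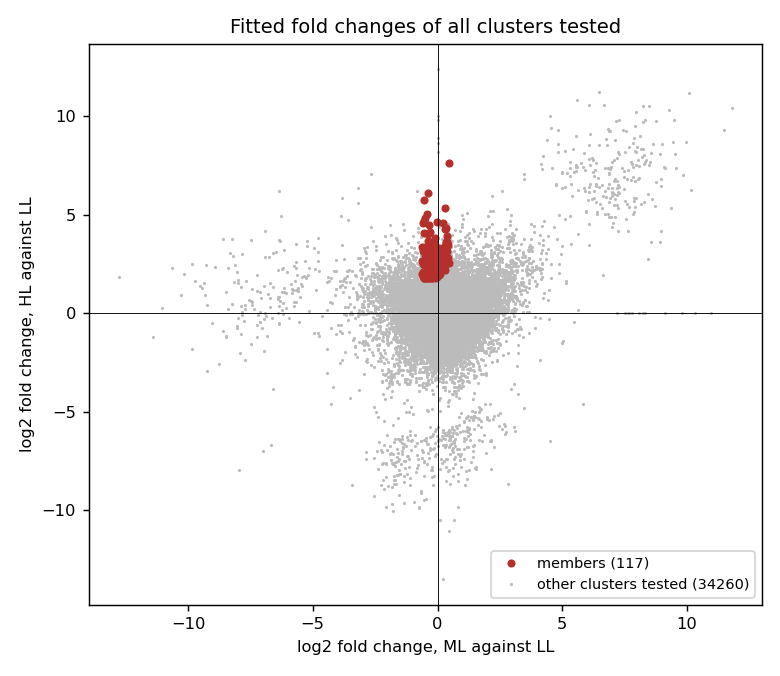
Log2 fold change of HL against LL (vertical) and of ML against LL (horizontal), fitted with edgeR, for each of the 34377 clusters tested. The 117 members (dark red) form a narrow column between −0.63 and 0.46 on the horizontal axis and at 1.76 or more on the vertical axis, which follows from the rule; the axes share the LL libraries.

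The levels at 150 and 600 were close but not always equal. ML was below LL in 77 members and above it in 40, with a median ratio of ML to LL of 0.868 in CPM. The share of all clusters with ML below LL was not counted. Fitted with library totals as the scale, the median log2 fold change of ML against LL was −0.20 in the members and 0.08 in all clusters tested. A median ratio of 0.868 is within the rule's limits, which allowed 0.667 to 1.5. In the edgeR test of ML against LL, 1 member was higher and 6 were lower in ML, beside 17.1% and 19.5% of all clusters tested, and the rule bounds this contrast too. Of these 7, 4 had whole counts in all libraries, and 3 were among the 6 members with the most HL reads. Their log2 fold changes lay between −0.60 and 0.33. Without the third ML library, 12 members were called.

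The differences between ML and LL in the called members were kept small by the rule, so their smallness is not a result. Some of them are given here as examples. The member with the second most HL reads was at 71.4 ± 5.26 CPM in ML and 94.9 ± 5.49 CPM in LL (SD, n = 3 each), with a fitted log2 difference of −0.45 ± 0.07 (standard error). The fourth by reads was at 34.8 ± 1.54 CPM in ML and 49.6 ± 5.00 CPM in LL, with a fitted log2 difference of −0.55 ± 0.07. Both had ML libraries below all LL libraries. The one that was higher, the ninth by reads, was at 13.8 ± 1.37 CPM in ML and 10.7 ± 1.15 CPM in LL, with a fitted log2 difference of 0.33 ± 0.09. At 58.04 ± 1.97 CPM in HL, it was the only called member whose levels were ordered LL, ML, HL.

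By median, the members were shorter than the clusters that met the same minimum level in HL. Their median implied length was 1005 bases, with quartiles of 619 and 1501 bases, and that of the 14199 clusters tested with an HL mean of at least 5 CPM, which the rule also asks of the members, was 1307 bases. The median of all clusters tested was 1074 bases, and the sign of that smaller difference turned with the FPKM needed for a length, since with at least 2 FPKM in place of 0.5 the medians were 1008 and 950 bases. Clusters of the opposite pattern had a median of 1618 bases, and those high at 600 one of 1694 bases. At least 2500 bases were implied for 11 members (9.40%), for 17.7% of the clusters with an HL mean of at least 5 CPM, for 27.4% of the opposite pattern, for 29.0% of those high at 600 and for 13.0% of the clusters tested. These lengths were described and not tested against each other.

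**Figure D5:**
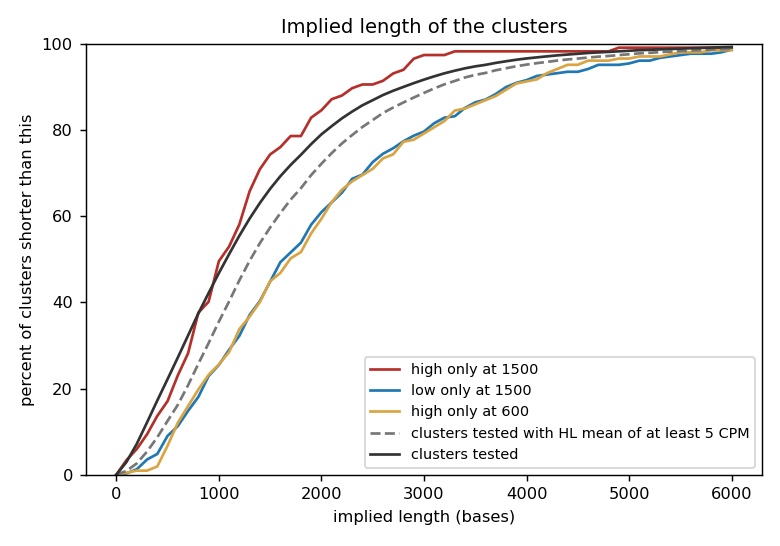
Percent of clusters shorter than a given implied length in bases, for the 117 members (high only at 1500), the 310 clusters low only at 1500, the 207 high only at 600, the clusters tested with an HL mean of at least 5 CPM (dashed) and all clusters tested. The members' median of 1005 bases lies near the 1074 bases of all clusters tested and below the 1307 bases of those with an HL mean of at least 5 CPM, and the other patterns lie at longer lengths.

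Levels per length are not readable for the shortest members. An implied length under 100 bases was found for 4 members, all with whole counts, among them the member with the highest FPKM. It had 2.53, 1.53 and 1.40 CPM in LL, 1.03, 1.38 and 1.57 CPM in ML, 7.45, 7.03 and 6.44 CPM in HL, and 1387 ± 40.5 FPKM in HL. Its implied length of 4.59 bases is too short for a transcript, so the authors' FPKM was divided there by something other than the plain length. The rank of this member per length was not used. Whether the same holds for other clusters was not tested, so any implied length given here may differ from the plain length. All 117 members carried the leading number 5009 in their identifier, as did 33989 of the 34377 clusters tested, and no source used here explains that number.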

How the data were processed

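The authors deposited 1 table per library, with estimated counts per cluster, which carry decimals, and FPKM values, per the file headers. DESeq 1.10.1 is named in the submitters' processing notes, and no source used here names the aligner, counter, assembly or annotation. Between 27.9% and 31.0% of the clusters of each library carried decimals. Members were found on CPM from library totals, without rounding. For tests, estimated counts were rounded and fitted with edgeR 4.0.16 in R 4.3.3: default expression filter, TMM factors, robust quasi-likelihood fit over all 9 libraries with group as the only term and 6 residual degrees of freedom, Benjamini-Hochberg adjustment, threshold 0.05. The fit was also run on simulated whole counts, with the same spread for all clusters and few changed clusters. That setting is simpler than these data, and nothing is read from it here. An implied length is the median over libraries of the ratio of count to FPKM, at an FPKM of at least 0.5. With 3 libraries against 3, an exact permutation test cannot go below 0.1 and was not used. Alternatives used DESeq2 1.42.0 and limma 3.58.1 (on log2 FPKM with a pseudocount of 1 or 0.1, same clusters). The members, the rule and the measures described were chosen with earlier results of these data known. Identifiers were to be printed for the member with the most HL reads and that with the largest fold, and the other members are given by rank. Gene lists were not run, since the identifiers carry no gene names.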

Additional observations from a re-analysis of the deposited data

How the results depend on the processing

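The number of clusters found depended on the limits of the rule. It was 117 as described, 54 with an HL minimum of 10 CPM and 248 with 1 CPM, 321 with a 2-fold and 53 with a 5-fold limit, 58 with a tighter limit on the ratio of LL to ML and 155 with a limit of 2, and 127 with overlapping libraries allowed. With scaling by TMM 132 were found, 102 of them among the 117, with RLE 150 (108 shared), and with FPKM in place of CPM 133 (96 shared). Restricting the 117 to whole counts, an alternative chosen after seeing the data, left 18. Leaving out a library gave 93 to 119 clusters. The third LL library mattered most, since without it 73 of the 93 were among the 117.

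Over the libraries left out in turn, members called higher in HL than in LL numbered 90 to 100, those higher in HL than in ML 95 to 108, and those called between ML and LL 5 to 12, with 12 without ML replicate 3 against 7 with all libraries. Over all clusters the calls ranged from 12821 to 14786 for HL against LL, from 18224 to 20282 for HL against ML and from 10316 to 12438 for ML against LL. Members higher in HL than in LL were 95 with DESeq2, 86 with no expression filter and 116 with limma on log2(FPKM + 1), where the median log2 fold change was 1.83. Over all clusters in the same settings, 8576, 5956 and 6157 were higher in HL than in LL. The main fit had 7608. The members' median implied length differed from that of all clusters tested by −68.9 bases, by 57.8 bases with lengths from at least 2 FPKM, and by −302 bases from clusters with an HL mean of at least 5 CPM; which clusters have a length changes with the first setting and which clusters are compared with the second.

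Same-numbered libraries did not deviate together more than other pairs did. Across clusters, r was between −0.039 and 0.011 for same-numbered libraries and between −0.013 and 0.041 for the others. The deviations were taken from means of 3 libraries, which holds r near 0 on average over all pairs. Whether the replicate numbers stand for something shared was not tested. With the replicate number as a block, calls were 13792 for HL against LL, 19082 for HL against ML and 11180 for ML against LL, with 97 and 101 members higher in HL than in LL and in ML, and 8 members called between ML and LL. At these depths, levels near 0 in LL and ML rest on as few as 10.1 counts over 3 libraries, which limits the folds above 20.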
